A study of Mus musculus with 30 samples.

Results

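The transcripts described here are those of 8 mouse genes for secreted inflammatory factors, namely the chemokines Cxcl1, Cxcl5, Cxcl10, Cxcl12, Ccl2 and Ccl7, the pentraxin Ptx3 and the cytokine Il6. They were taken by symbol from the 22477 genes of the deposited expression table, and all 8 were found there. The group was put together because Cxcl1, Ccl7 and Ptx3 stood high at the start of the time course and not later, so the group was selected on its values in the time course, and the decline after 0 h is given here as a description. The cells were mouse secondary iPSCs, pluripotent cells in which doxycycline (dox) switches on transgenes of Oct4, Sox2, Klf4 and cMyc (OSKM), with GFP at the endogenous Nanog locus and a constitutive nuclear RFP. All 15 conditions came from these cells, which were kept in serum/LIF on feeders of CF1 mouse embryonic fibroblasts (MEFs). Before 0 h they were moved for 24 h to serum-free N2B27 medium with 2i/LIF. They then differentiated in N2B27 without 2i/LIF. Polyadenylated RNA was sequenced from 30 samples, 2 per condition. A time course sampled the cells at 0, 24, 36, 48, 60, 72 and 96 h after 2i/LIF was withdrawn, and 8 further conditions were cells that had differentiated for 0, 24, 48 or 96 h before they were re-seeded for 48 h in serum/LIF, lacking dox (–dox) or containing it (+dox). For the colony assay, the methods place the cells on gelatin before withdrawal and on MEF feeders after re-seeding, and they do not state what the cells taken for RNA grew on.

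The authors' table holds, for each gene, 1 FPKM value per condition (fragments scaled to transcript length and to library size) that merges the 2 replicates. Since it carries no replicate values and no counts, no value below has a spread, a test or a known number of reads behind it. A difference was called when the values of a pair of conditions had a plain ratio of at least 2 and the higher one reached 1 FPKM. The words rose and fell are kept for such calls. Il6 never reached 1 FPKM and could not be called in any comparison. The summed values of a condition ran from 603278 to 832607 FPKM, and median-ratio factors ran from 0.990 to 1.03. At 0 h the pluripotency markers Pou5f1, Nanog and Esrrb stood at 199, 227 and 150 FPKM, and in cells re-seeded from 96 h without dox they stood at 2.63, 2.13 and 1.98 FPKM.

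Chemokines are small secreted proteins that guide migrating cells through G protein-coupled receptors. Cxcl1 and Cxcl5 act on Cxcr2 and draw in neutrophils, Ccl2 and Ccl7 act on Ccr2 and draw in monocytes, Cxcl10 is an interferon-inducible ligand of Cxcr3 on T cells, and Cxcl12 guides progenitor cells through Cxcr4 and is scavenged by Ackr3. Ptx3 is a soluble pattern recognition protein of innate immunity and Il6 a cytokine that signals through Il6ra and Il6st. Fibroblasts exposed to serum or inflammatory cytokines are a well known source of Cxcl1, Ccl2, Ccl7, Ptx3 and Il6, and the transcription factor NF-kB is a known activator of several of these genes.

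Cxcl1 (chr5:90891241-90893115, plus strand, mm10) and Cxcl5 (chr5:90759360-90761624, plus strand) belong to the same chromosome 5 cluster of Cxcl genes. Cxcl10 lies elsewhere on chromosome 5 (chr5:92346638-92348889, minus strand), next to Cxcl9. Ccl2 (chr11:82035571-82037453, plus strand) and Ccl7 (chr11:82045712-82047525, plus strand) are neighbours on chromosome 11. Cxcl12 is at chr6:117168535-117181367 (plus strand), Ptx3 at chr3:66219910-66225805 (plus strand) and Il6 at chr5:30013114-30019981 (plus strand). The positions are those of Gencode M21 on mm10.

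The 250 bases before the RefSeq start site (GRCm38.p6) were available for 5 of the 8 genes, namely Cxcl1, Cxcl10, Cxcl12, Ptx3 and Il6. They were searched on both strands for an NF-kB element (GGGNNTTTCC, present in 1.41% of 32851 promoters of the same length), an interferon response element of the ISRE type (TTTCNNTTTC, 2.98%) and an AP-1 element (TGANTCA, 6.75%). A match describes the letters of the window and not a site that was seen to be bound. The promoters of 4 genes are shown, 5′ to 3′ on the strand of the gene and with each match in capitals, because Cxcl1 and Ptx3 shared the decline from 0 h, Cxcl10 went another way, and Il6 stayed low throughout. They lie at chr5:90890995-90891244 (plus strand) for Cxcl1, chr3:66219637-66219886 (plus strand) for Ptx3, chr5:92348890-92349139 (minus strand) for Cxcl10 and chr5:30012864-30013113 (plus strand) for Il6.
Cxcl1: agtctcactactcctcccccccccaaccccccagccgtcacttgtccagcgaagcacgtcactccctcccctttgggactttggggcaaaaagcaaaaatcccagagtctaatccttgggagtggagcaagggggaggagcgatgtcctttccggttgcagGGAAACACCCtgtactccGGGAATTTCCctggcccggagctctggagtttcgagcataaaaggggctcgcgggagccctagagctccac
Ptx3: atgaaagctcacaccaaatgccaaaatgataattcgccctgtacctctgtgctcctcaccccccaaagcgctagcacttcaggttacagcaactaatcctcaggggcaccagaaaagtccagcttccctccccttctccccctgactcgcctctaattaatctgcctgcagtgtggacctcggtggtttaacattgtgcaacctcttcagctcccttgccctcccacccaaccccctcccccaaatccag
Cxcl10: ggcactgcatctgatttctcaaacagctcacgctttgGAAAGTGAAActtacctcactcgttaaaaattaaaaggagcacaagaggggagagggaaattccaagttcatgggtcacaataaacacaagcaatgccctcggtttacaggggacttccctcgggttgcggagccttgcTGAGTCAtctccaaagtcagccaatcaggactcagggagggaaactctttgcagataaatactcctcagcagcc
Il6: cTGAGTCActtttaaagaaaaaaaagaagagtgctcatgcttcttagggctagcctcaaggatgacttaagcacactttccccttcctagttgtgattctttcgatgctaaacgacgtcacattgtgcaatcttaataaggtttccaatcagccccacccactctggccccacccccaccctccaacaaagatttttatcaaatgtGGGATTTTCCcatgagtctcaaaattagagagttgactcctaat

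The Cxcl1 window held a pair of NF-kB matches, the first beginning at base -89 on the opposite strand and the second at base -71 on the strand of the gene, counted from the start site. The Il6 window held an NF-kB match at base -44 and an AP-1 match at base -249. The Cxcl10 window held an ISRE-type match at base -213 on the opposite strand and an AP-1 match at base -74. It also holds gggaaattcc and gggacttccc, which come close to the NF-kB letters and were not counted. The search took exact letters, so the lack of a match does not show the lack of an element. The windows of Ptx3 and Cxcl12 held none of these letters. Cxcl1 and Il6, which each held an NF-kB match, stood at 59.8 and 0.540 FPKM at 0 h. Ptx3, without a match, stood at 47.9 FPKM. No window was available for Cxcl5, Ccl2 or Ccl7, and the part of these elements in the transcript levels was not tested.

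At 0 h, 5 of the 8 genes stood far above the others. They were the neutrophil chemokines Cxcl1 and Cxcl5, the monocyte chemokines Ccl2 and Ccl7, and Ptx3. Cxcl5 was highest at 81.1 FPKM, followed by Ccl2 at 70.7, Cxcl1 at 59.8, Ptx3 at 47.9 and Ccl7 at 47.0 FPKM. Cxcl12 at 3.34 FPKM, Cxcl10 at 2.48 FPKM and Il6 at 0.540 FPKM were well below. With 1 combined value per gene, the order of neighbouring genes, such as Ptx3 and Ccl7, cannot be set against a spread.

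Cxcl1 went from 59.8 FPKM at 0 h to 8.45 at 24 h, 1.31 at 36 h, 0.944 at 48 h, 0.296 at 60 h, 0.576 at 72 h and 0.216 FPKM at 96 h. Cxcl5, the other ligand of Cxcr2, went from 81.1 FPKM to 12.4, 2.16, 2.46, 0.246, 0.863 and 0.212 FPKM over the same timepoints. Both were thus still above 5 FPKM at 24 h and under 1 FPKM from 60 h on. Ccl2 went from 70.7 FPKM at 0 h to 18.7, 3.40, 5.21, 0.892, 0.429 and 0.822 FPKM. Ccl7, its neighbour on chromosome 11, went from 47.0 FPKM to 10.1, 2.08, 2.89, 0.694, 0.633 and 0.363 FPKM. The monocyte chemokines were a little higher at 48 h than at 36 h, by less than 2-fold, before they dropped under 1 FPKM at 60 h. Ptx3 went from 47.9 FPKM at 0 h to 3.31, 0.769, 0.689, 0.281, 0.483 and 0.362 FPKM, and was under 1 FPKM as early as 36 h.

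The first day of withdrawal separated these 5 genes by how much transcript was left. Ptx3 kept 6.92% of its 0 h value at 24 h, Cxcl1 14.1%, Cxcl5 15.3%, Ccl7 21.5% and Ccl2 26.5%. Ptx3 fell 14.4-fold and Ccl2 3.78-fold between 0 and 24 h. At 24 h, 6 of the 8 genes were called lower than at 0 h, against 14.3% of the genes tested, and at 96 h 5 were, against 16.4%. For all 5 genes the 0 h value was at least 3-fold above each later timepoint, a pattern that 3.14% of the genes tested had. These shares describe the pattern by which such genes were chosen and nothing is read from them. Over the 8 genes, the median log2 ratio of 24 h to 0 h, with 0.1 FPKM added to both values, was -2.45. Over all genes that reached 1 FPKM at either timepoint it was -0.01.

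Cxcl10 and Cxcl12 took a different course. The interferon-inducible chemokine Cxcl10 stood at 2.48 FPKM at 0 h, 0.275 at 24 h, 0.439 at 36 h, 1.12 at 48 h, 9.44 at 60 h, 12.3 at 72 h and 3.30 FPKM at 96 h. It fell 9.01-fold by 24 h, with a log2 ratio of -1.45 once 1 FPKM was added to both values, and was 4.97-fold higher at 72 h than at 0 h. Cxcl12, the ligand of Cxcr4, stood at 3.34, 2.21, 8.03, 14.7, 32.9, 31.9 and 14.8 FPKM over the 7 timepoints. It did not pass the threshold between 0 and 24 h (log2 ratio -0.60), and it was 9.53-fold higher at 72 h than at 0 h. Cxcl10 and Cxcl12 were the 2 genes called higher at 72 h than at 0 h, against 15.0% of the genes tested. They were also the 2 called higher at 96 h than at 24 h, against 20.5%. Both dropped again between 72 and 96 h, by more than 2-fold in each case.

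Il6 was listed at 0.540, 0.113, 0.0724 and 0.0793 FPKM at 0, 24, 36 and 48 h and at 0 from 60 h on. Its highest value of the time course was thus also at 0 h, but it was under 1 FPKM there. Of the 8 genes, the 7 other than Il6 differed at least 2-fold between some pair of timepoints, as did 60.7% of the genes tested, so that count does not set the group apart.

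**Figure D1:**
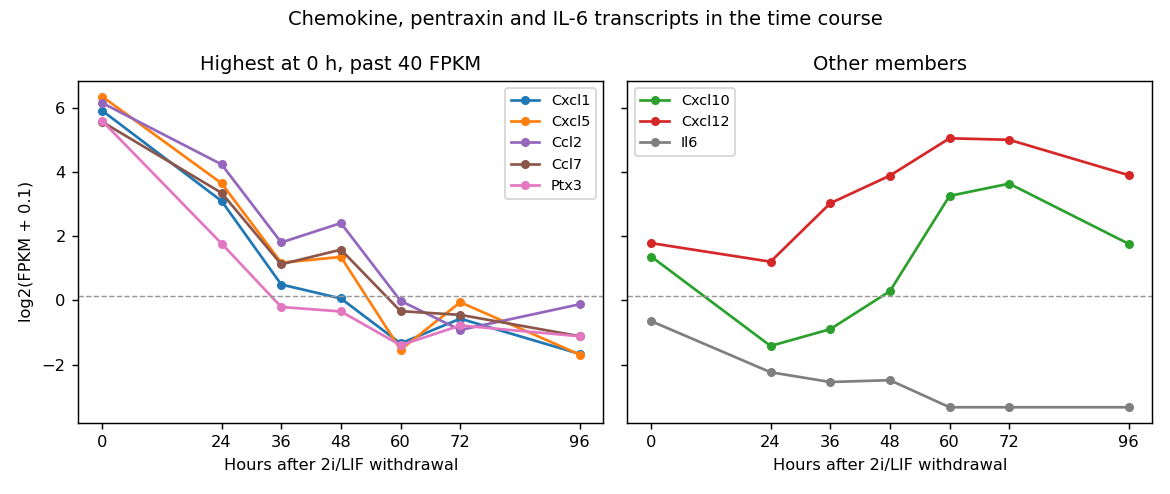
Level of each transcript, as log2(FPKM + 0.1), against hours after 2i/LIF withdrawal, with the 5 genes that passed 40 FPKM at 0 h on the left and the other 3 on the right. Each point is 1 combined value of 2 replicates, and the dashed line marks 1 FPKM. The genes on the left go from between 47.0 and 81.1 FPKM at 0 h to under 1 FPKM from 60 h on, whereas Cxcl12 reaches 32.9 FPKM at 60 h and Cxcl10 12.3 FPKM at 72 h.

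Markers of fibroblasts, the cells of the MEF feeder layer, moved with the 5 early genes. The 20 markers summed to 884 FPKM at 0 h, led by the collagens Col1a1, Col3a1 and Col1a2 at 229, 201 and 160 FPKM, and to 105 FPKM at 24 h. Between 0 and 24 h, 15 of the 20 fell, against 14.3% of all genes tested, and Thy1 rose, and the median log2 ratio of the list was -2.74. The sum kept 11.9% of its 0 h value at 24 h, and the sum of Cxcl1, Cxcl5, Ccl2, Ccl7 and Ptx3 kept 17.3%, going from 306 to 53.0 FPKM. From 60 to 96 h the 5 genes summed to between 1.97 and 2.98 FPKM and the markers to between 36.5 and 45.5 FPKM. The markers thus summed to 2.88 times the 5 genes at 0 h, 1.98 times at 24 h and 23.1 times at 96 h. Of the defining fibroblast markers, Col1a1 followed this course, Pdgfra was at most 0.599 FPKM in the time course, and Thy1 had 4.01, 8.10 and 17.7 FPKM at 0, 24 and 48 h. The part of fibroblasts in these values was not tested. In bulk RNA, fewer cells of a type and less RNA per cell cannot be told apart.

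Markers of other cell types had varied courses, and their part in the values of the 5 early genes was not tested. The leukocyte gene Ptprc was at most 0.0300 FPKM over the 15 conditions, and the macrophage receptor gene Csf1r was at most 0.0760 FPKM in the time course. Csf1r reached 5.83 FPKM in the cells re-seeded from 96 h without dox. Of 8 endothelial markers, 4 reached 1 FPKM at 0 or 24 h. Between these timepoints Pecam1 and Vwf fell, where 14.3% of all genes tested fell, and Esam rose, as did 1113 of the 12884 tested. Vwf, which encodes von Willebrand factor, went from 16.4 to 1.86 FPKM by 24 h and stood at 0.878 FPKM at 96 h and 7.79 FPKM in the –dox cells from 0 h. Pecam1, which pluripotent cells also express, had 45.0, 15.9 and 1.11 FPKM at 0, 24 and 96 h and 56.6 FPKM in those –dox cells. Cdh5, by contrast, was at most 0.247 FPKM in the time course and reached 13.1 FPKM in the –dox cells from 96 h. The endothelial list summed to 63.7 FPKM at 0 h and ran from 3.20 to 63.7 FPKM over the time course. The endoderm genes Gata4 and Sox17 were at 1.44 and 0.258 FPKM at 0 h, Gata6 was at most 1.10 FPKM in the time course, and Dab2 rose from 3.53 to 26.2 FPKM between 0 and 96 h. The immune list summed to 34.2 FPKM at 0 h, of which the lysosomal gene Cd68 made up 29.8 FPKM, and it ran from 10.7 to 34.2 FPKM over the time course. Itgam was at most 1.98 FPKM, at 48 h.

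**Figure D2:**
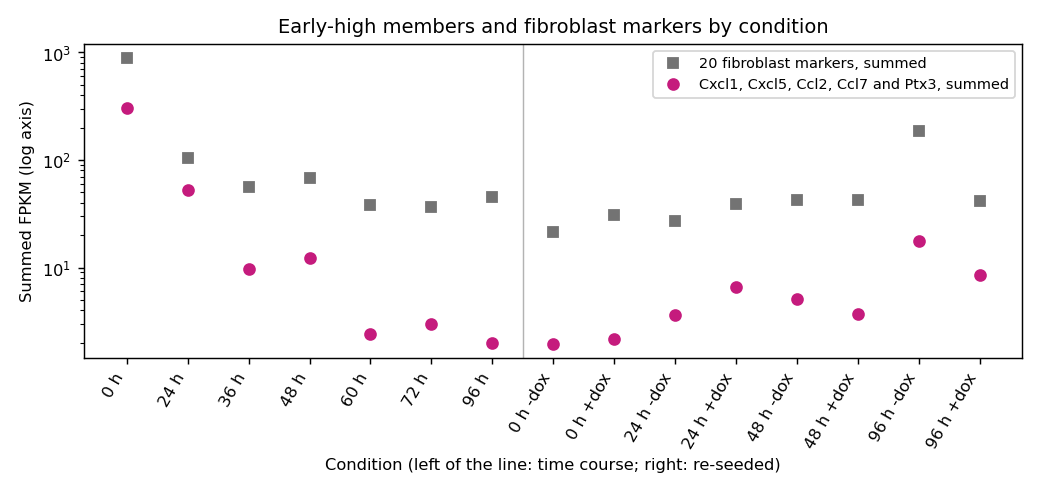
Summed FPKM, on a log axis, of the 20 fibroblast markers (squares) and of Cxcl1, Cxcl5, Ccl2, Ccl7 and Ptx3 (circles) in each of the 15 conditions, with 1 combined value per condition. Both sums are highest at 0 h, at 884 and 306 FPKM, and among the re-seeded cells both are highest in those from 96 h without dox, at 186 and 17.5 FPKM.

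Cells taken at 0 h and re-seeded in serum/LIF for 48 h had far lower values of the early chemokines, whereas 8 of 10 pluripotency markers did not pass the threshold. Tfcp2l1 and Prdm14, named after their values were seen, were the 2 markers that fell, from 124 to 32.1 FPKM and from 18.8 to 7.03 FPKM. Pou5f1, Nanog and Esrrb stood at 360, 120 and 151 FPKM in the –dox cells, and Dppa5a and Sox2, the other markers of highest level, at 4282 and 224 FPKM. Cxcl1 stood at 0.237, Cxcl5 at 0.335, Ccl2 at 0.805, Ccl7 at 0.442 and Ptx3 at 0.142 FPKM. As plain ratios, these were 87.9-fold (Ccl2) to 338-fold (Ptx3) lower than at 0 h before re-seeding. The sizes rest on values under 1 FPKM, and with 1 FPKM added to both values the log2 ratios were between -5.94 (Cxcl5) and -5.06 (Ccl7), in another order. Cxcl12 fell from 3.34 to 0.132 FPKM and Cxcl10 from 2.48 to 0.183 FPKM. In all, 7 of the 8 genes fell, against 10.1% of the genes tested, and 0 rose, against 12.0%. The comparison shares its 0 h value with those of the time course, by which the genes were chosen. Between cells before re-seeding and –dox cells, re-seeding came together with a change from serum-free medium to serum/LIF and with 48 h more in culture. The serum-free medium held 2i/LIF at 0 h and neither at the later starting times. These changes cannot be told apart at any starting time. The fibroblast markers summed to 21.6 FPKM in the –dox cells, lower than the 884 FPKM at 0 h, and 15 of the 20 fell, against 10.1%. The median log2 ratio over the 8 genes was -6.37 and that of the fibroblast markers -4.66. For all genes reaching 1 FPKM in either condition it was -0.01. With 1 FPKM added, the median over the 8 genes was -5.18.

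Cells re-seeded from 24 h without dox were also lower in the 5 early genes than the cells at 24 h. Cxcl1 went from 8.45 to 0.588 FPKM, Cxcl5 from 12.4 to 0.430, Ccl2 from 18.7 to 1.73, Ccl7 from 10.1 to 0.759 and Ptx3 from 3.31 to 0.154 FPKM. These were the 5 genes called lower, against 10.6% of the genes tested. Cxcl10 rose from 0.275 to 3.46 FPKM, the 1 gene called higher, against 14.9%. Cxcl12 had 2.21 and 3.39 FPKM, a difference under the threshold, and the fibroblast markers summed to 27.3 FPKM.

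In the cells re-seeded from 48 h without dox, Cxcl10 reached 13.6 FPKM, its highest value of the 15 conditions, from 1.12 FPKM at 48 h. It was again the 1 gene called higher, against 15.3% of the genes tested. Cxcl12 went the other way, from 14.7 to 1.58 FPKM, and Cxcl5 fell from 2.46 to 0.227, Ccl2 from 5.21 to 1.74 and Ccl7 from 2.89 to 1.22 FPKM. These were the 4 genes called lower, against 11.5%. Cxcl1 at 0.982 FPKM and Ptx3 at 0.970 FPKM were close to 1 FPKM in these cells. Il6 was listed at 0.0773 FPKM.

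The cells re-seeded from 96 h without dox were the ones in which early chemokines were higher than before re-seeding. Cxcl1 rose from 0.216 to 4.11 FPKM, a log2 ratio of 4.25, and Ccl7 from 0.363 to 4.41 FPKM, a log2 ratio of 3.60. Ptx3 rose from 0.362 to 3.81 FPKM (log2 ratio 3.40) and Ccl2 from 0.822 to 4.60 FPKM (log2 ratio 2.49). These 4 genes were called higher, against 12.4% of the genes tested, and 0 were called lower, against 11.2%. Each stayed far under its 0 h value, and since none reached 5 FPKM, the calls rest on the minimum of 1 FPKM. With 1 FPKM added to both values, the log2 ratios were 2.07 for Cxcl1, 1.99 for Ccl7, 1.82 for Ptx3 and 1.62 for Ccl2. Cxcl5, with 0.212 and 0.588 FPKM, stayed under 1 FPKM. Cxcl10 had 3.30 and 5.13 FPKM and Cxcl12 14.8 and 19.9 FPKM, both under 2-fold. The fibroblast markers summed to 186 FPKM in these cells and to 45.5 FPKM at 96 h, with 12 of the 20 higher and 3 (Thy1, Twist1 and Dcn) lower, and the part of fibroblasts in these values was not tested.

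**Figure D3:**
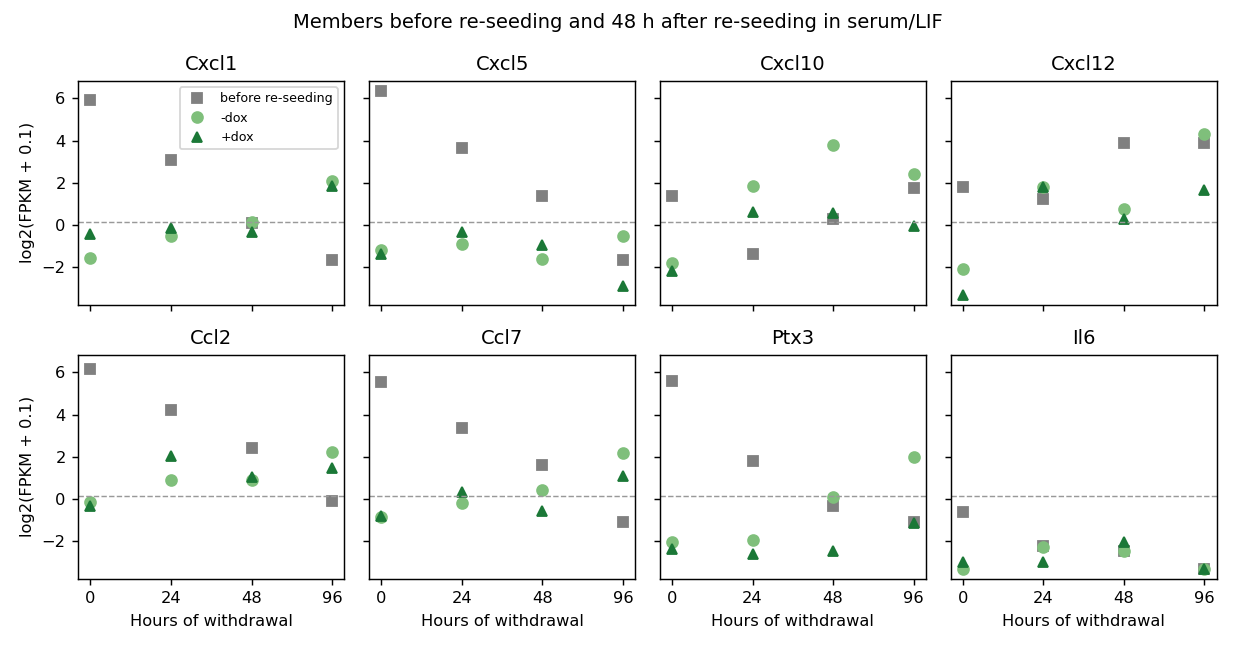
Level of each of the 8 transcripts, as log2(FPKM + 0.1), against hours of withdrawal, before re-seeding (squares) and 48 h after re-seeding in serum/LIF without dox (circles) or with dox (triangles). Each point is 1 combined value of 2 replicates, and the dashed line marks 1 FPKM. At 0 h the squares of Cxcl1, Cxcl5, Ccl2, Ccl7 and Ptx3 are far above both re-seeded values, and at 96 h the –dox circles of Cxcl1, Ccl2, Ccl7 and Ptx3, between 3.81 and 4.60 FPKM, are above the squares.

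OSKM induction was compared with re-seeding alone at each starting time. The +dox and –dox cells share the same re-seeding, and each starting time has its own pair of conditions. In cells from 0 h, none of the 8 genes reached 1 FPKM in either condition, so 0 were called higher, against 3.62% of the genes tested, and 0 lower, against 5.61%. The highest of them was Ccl2, at 0.805 FPKM without dox and 0.691 FPKM with it, and Cxcl12 was listed at 0.132 FPKM and at 0. Cxcl1 stood at 0.638 FPKM with dox, Ccl7 at 0.470, Cxcl5 at 0.285, Ptx3 at 0.0883 and Il6 at 0.0244 FPKM. In cells from 24 h, Ccl2 was higher with dox, at 3.93 against 1.73 FPKM, the 1 gene called higher, against 2.87%. Cxcl10 was lower with dox, at 1.43 against 3.46 FPKM, the 1 gene called lower, against 3.4%. Both differences were under 3-fold, and neither was called with 1 FPKM added to both values. Cxcl12 had nearly the same value in both, 3.35 and 3.39 FPKM. Ccl7 was at 1.16 FPKM with dox and 0.759 FPKM without, and Cxcl1 at 0.811, Cxcl5 at 0.685, Ptx3 at 0.0603 and Il6 at 0.0238 FPKM with dox.

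In cells from 48 h, Cxcl10 stood at 1.38 FPKM with dox and 13.6 FPKM without, a log2 ratio of -3.30. Ccl7 stood at 0.561 FPKM with dox and 1.22 FPKM without. With 1 FPKM added, the log2 ratio of Cxcl10 was -2.62 and that of Ccl7 was -0.51, which was no longer called. These were the 2 genes called lower, against 6.46% of the genes tested, and 0 were called higher, against 6.56%. Ptx3, at 0.0784 and 0.970 FPKM, was under 1 FPKM in both. Ccl2, at 1.96 and 1.74 FPKM, and Cxcl12, at 1.11 and 1.58 FPKM, differed by less than 2-fold. Cxcl1 was at 0.695 FPKM with dox, Cxcl5 at 0.416 and Il6 at 0.141 FPKM.

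In cells from 96 h, dox went with lower values of 4 of the 8 genes, against 11.1% of the genes tested, and with higher values of 0, against 6.67%. Ptx3 stood at 0.350 FPKM with dox and 3.81 FPKM without (log2 ratio -3.45), Cxcl12 at 3.06 and 19.9 FPKM (-2.70), Cxcl10 at 0.867 and 5.13 FPKM (-2.56) and Ccl7 at 2.01 and 4.41 FPKM (-1.13). With 1 FPKM added, the log2 ratio was -1.83 for Ptx3, -1.72 for Cxcl10 and -0.84 for Ccl7, which was no longer called. Cxcl1, at 3.45 and 4.11 FPKM, and Ccl2, at 2.66 and 4.60 FPKM, did not pass the threshold. Ptx3 and Cxcl1, which had declined together after 0 h, thus differed here, with Ptx3 10.9-fold and Cxcl1 1.19-fold lower with dox. Cxcl5 was at 0.0333 and 0.588 FPKM and Il6 was listed at 0 in both. The fibroblast markers summed to 41.8 FPKM with dox and 186 FPKM without, and 12 of the 20 fell and 2 (Dcn and S100a4) rose. Their part in these values was not tested.

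The median log2 ratio of +dox to –dox over the 8 genes was -0.19 in cells from 0 h, 0.19 from 24 h, -0.46 from 48 h and -1.73 from 96 h, with 0.1 FPKM added to both values. With 1 FPKM added, the last was -0.73. Over all genes that reached 1 FPKM in either condition of a pair, the median, with 0.1 FPKM added, was between -0.02 and 0.05. Cxcl10 was called lower with dox at 3 of the 4 starting times, the exception being 0 h, at which it stood at 0.117 FPKM with dox and 0.183 FPKM without. Ccl7 was called lower with dox at 48 and 96 h, and neither call was made with a minimum of 5 FPKM, a fold of at least 3 or 1 FPKM added. The remaining calls were each made at 1 starting time.

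Most neighbours of the early genes on the chromosome stood far lower than these genes at 0 h, and several of them were also highest at 0 h among the timepoints. In the Cxcl cluster of chromosome 5, whose starts span 144.5 kb, Cxcl5 and Cxcl1 lie 131.9 kb apart with Ppbp, Pf4, Cxcl3 and Cxcl15 between them and Cxcl2 beyond. At 0 h these 5 neighbours stood at between 0 and 0.803 FPKM, the highest being Cxcl2, the closest relative of Cxcl1. Ppbp, a platelet chemokine, stood at 13.1 FPKM in the cells re-seeded from 96 h without dox and at no more than 0.452 FPKM in any other condition. In the Ccl cluster of chromosome 11, Ccl2 and Ccl7 start 10.1 kb apart. Of the 4 other genes of that cluster, Ccl8, another monocyte chemokine, stood at 18.0, 1.95 and 0.859 FPKM at 0, 24 and 36 h, and Ccl11, Ccl12 and Ccl1 were at most 0.407 FPKM at 0 h. Reads shared between such close relatives could be split between them, and how the authors' counting treated them was not given in the sources used here.

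**Figure D4:**
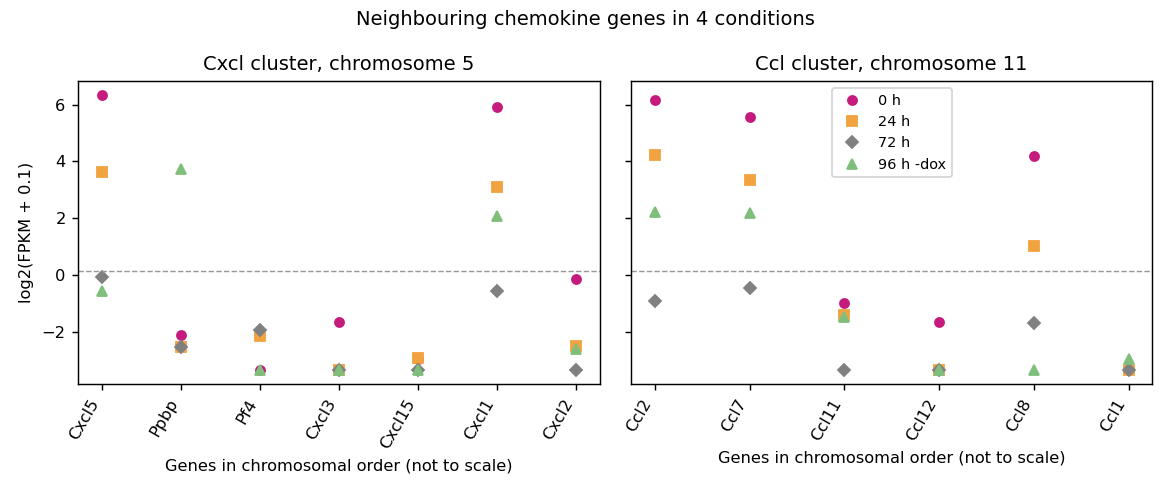
Level of each gene of the Cxcl cluster of chromosome 5 (left) and of the Ccl cluster of chromosome 11 (right), as log2(FPKM + 0.1), in chromosomal order and not to scale, at 0, 24 and 72 h and in cells re-seeded from 96 h without dox. The dashed line marks 1 FPKM. At 0 h, Cxcl5 and Cxcl1 on the left and Ccl2, Ccl7 and Ccl8 on the right are above the line, and of the conditions drawn, Ppbp is above it in the re-seeded cells alone.

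Of 24 other chemokine ligands in the table, 6 reached 1 FPKM at 0 or 24 h. Between these timepoints 5 fell, where 14.3% of all genes tested fell, and 1 rose. Those that fell were Cxcl14, Cxcl16, Ccl5, Ccl8 and Ccl20, and the 1 that rose was Ccl25, of which all but Cxcl16 and Ccl8 are named because the count is small and were chosen after their values were seen. Cxcl16, a membrane-bound chemokine, went from 1.18 FPKM at 0 h to 0.196 at 24 h and 7.36 FPKM at 72 h, and was highest in cells re-seeded from 48 h, at 21.8 FPKM without dox and 17.4 FPKM with it. Its rise at later timepoints was shared with Cxcl10 and Cxcl12 and not with Cxcl1 or Ccl2.

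The receptors of the neutrophil and monocyte chemokines were close to 0. Cxcr2 was at most 0.0921 FPKM in the time course and 0.817 FPKM in any condition, and Ccr2 was at most 0.0296 FPKM. Cxcr3, the receptor of Cxcl10, was not analysed here. Cxcr4, the receptor of Cxcl12, was at most 1.17 FPKM in the time course, and the Cxcl12 scavenger Ackr3 declined from 8.32 to 0.296 FPKM between 0 and 72 h and was highest in the +dox cells from 96 h, at 15.7 FPKM. The receptor chains of Il6 stood higher than Il6 itself. Il6st, shared with LIF, declined from 27.4 to 13.5 FPKM between 0 and 24 h, and Il6ra from 5.08 to 0.876 FPKM. Ackr3, Il6ra and Il6st were the 3 receptors of the list that fell between 0 and 24 h, where 14.3% of all genes tested fell.

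Some other secreted inflammatory factors declined beside the 5 early genes. The acute phase gene Saa3 had 2019 FPKM at the start, 140 after 24 h and 5.96 after 96 h, and it stood at 21.2 FPKM in cells re-seeded from 0 h without dox. The protease inhibitor gene Timp1 went from 176 to 62.6 FPKM by 24 h and, unlike Cxcl1, stood at 67.6 FPKM in the –dox cells from 0 h. Of 20 such factors, 8 reached 1 FPKM at 0 or 24 h. Between these timepoints 4 fell, Saa3, Lcn2, C3 and Timp1, where 14.3% of all genes tested fell, and 1 rose, Nptx2. The names of Lcn2, C3 and Nptx2 are given after their values were seen. Over the 20 factors the median log2 ratio was 0.0. Csf1, a macrophage growth factor, stood at 3.96 FPKM at 0 h and was highest in the –dox cells from 96 h, at 34.3 FPKM.

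Of 24 genes of the NF-kB pathway, 11 fell and 0 rose between 0 and 24 h, where 14.3% of all genes tested fell, and the median log2 ratio was -0.93. Bcl3, a nuclear cofactor of NF-kB, went from 93.2 to 22.1 FPKM, and Nfkbia, which encodes the inhibitor IkB-alpha and is itself an NF-kB target, went from 65.1 to 19.0 FPKM. Nfkbib had 35.1 and 42.2 FPKM. In cells re-seeded from 24 h without dox, where the 5 early genes fell, 5 of the 24 rose, against 14.9% of all genes tested, and 0 fell. In those from 48 h, where Cxcl5, Ccl2 and Ccl7 fell, 10 of the 24 rose, against 15.3%, and 0 fell. In cells re-seeded from 96 h without dox, where Cxcl1, Ccl2, Ccl7 and Ptx3 were higher than before re-seeding, 12 of the 24 rose, against 12.4% of all genes tested, and 0 fell, and Nfkbia stood at 85.8 FPKM against 32.4 FPKM at 96 h. With dox, 7 of the 24 were lower than without it, against 11.1%, and Nfkbia stood at 83.5 FPKM. In the –dox cells from 0 h, 9 of the 24 were lower than at 0 h, against 10.1%, and 3 (Nfkb1, Traf1 and Icam1) were higher, close to the 12.0% of all genes, and Nfkbia stood at 49.4 FPKM where Cxcl1 stood at 0.237 FPKM.

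Of 13 interferon-stimulated genes, 9 fell and 0 rose between 0 and 24 h, where 14.3% of all genes tested fell, and the median log2 ratio was -2.09. At 96 h, 8 were higher in the re-seeded –dox cells than before re-seeding, against 12.4%, and 9 were lower in +dox than in –dox cells, against 11.1%. Gbp2, an interferon-induced GTPase gene, had its highest value in the same condition as Cxcl10, at 67.1 FPKM in –dox cells from 48 h, and it stood at 5.54 FPKM in the matching +dox cells. Irf1, a transcription factor of the interferon response, stood at 43.3 and 10.0 FPKM in that pair. Isg15 stood at 5.90 and 0.724 FPKM there, and at 20.8 FPKM in –dox cells from 96 h. The fall of Cxcl10 with dox at 48 h was thus shared by Gbp2, Irf1 and Isg15, which with Oasl2 made up the 4 of the 13 that fell there, against 6.46% of all genes tested, and 0 rose.

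The genes whose courses were most like those of the 8 over the 15 conditions were looked for by Pearson's r of log2(FPKM + 1) among the 9066 genes compared that reached 10 FPKM. For Cxcl1 they were Ccl7 (r = 0.972) and Postn (0.955), for Ccl7 Postn (0.974) and Ccl2 (0.972), for Ccl2 Ccl7 (0.972) and Cxcl1 (0.932), for Ptx3 Postn (0.985) and Col12a1 (0.980), and for Cxcl5 Lox (0.974) and Thbs2 (0.970). Postn, a member of the fibroblast list, Col12a1 and Thbs2 encode matrix proteins, and Lox encodes an enzyme that crosslinks collagen. For Cxcl10 they were Pxdc1 (0.880) and Zc3hav1l (0.857), and for Cxcl12 Rragd (0.937) and Ptbp2 (0.902). Over the 8 re-seeded conditions alone, the 2 most like genes were other ones in every case. There, r of Cxcl5 was 0.579 with Lox and 0.281 with Thbs2, and that of Ptx3 0.968 with Postn and 0.937 with Col12a1. Among the 5 early genes themselves, r ran from 0.882 to 0.972 over the 15 conditions and from 0.049 to 0.856 over the 13 conditions without 0 and 24 h. In those 13 conditions, pairs with Cxcl5 ran from 0.049 (Cxcl1) to 0.527 (Ccl2). The other pairs ran from 0.468 (Ccl2 and Ptx3) to 0.856 (Ccl2 and Ccl7). The likeness of Cxcl5 to the others therefore rested largely on the first timepoints, and that of Cxcl1, Ccl2, Ccl7 and Ptx3 to each other only in part. The 15 points share a cell line and a laboratory, and the re-seeded cells descend from those of the time course.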

How the data were processed

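Reads of polyadenylated RNA from 30 samples were mapped by the authors to mm10 with TopHat 2.0.14, and Gencode transcripts of at least 200 bp were quantified with Cufflinks 2.2.1 (Cuffquant and Cuffdiff). The library normalization was not given in the sources used here. The deposited table holds FPKM values of 22477 genes, 1 per condition, in which the authors combined both replicates, so neither depth nor replicate spread is known. The table's 5 columns of the authors' gene groups and dox responses were not used.

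From these values, fold differences were computed as plain ratios with a minimum of 1 FPKM in the higher value. List medians used log2(FPKM + 0.1) and likeness used log2(FPKM + 1). The median over all genes was limited to those reaching 1 FPKM in either condition, and the list medians were not. Python 3.11.15, numpy 2.4.6, pandas 2.3.3 and matplotlib 3.10.9 were used. The code that calls folds was checked on the 0 h values with known changes planted in them and no noise added. The 8 genes and the 10 lists were chosen with earlier results of these data known. Of 168 listed genes besides the 8, 158 were in the table, and Adgre1 was found there under its older symbol Emr1. The genes named are the 8, the 3 with the highest value in each list, the defining markers of each cell type, the receptors and closest relatives of the 8, and the 2 genes most like each of them. Genes outside this rule that make up a count of 5 or fewer are named as well, chosen after their values were seen. Promoter sequences came from RefSeq (GRCm38.p6) and positions from Gencode M21. Alternatives were tried for the minimum, the fold, the added value, the scaling, the correlation measure and its conditions. Since the table gives no replicate values, no test was run. The result of 1 listed receptor gene is not reported here.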

Additional observations from a re-analysis of the deposited data

How the results depend on the processing

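No paired analysis was possible because the table combines both replicates of each condition, and for the same reason no replicate could be left out in turn. All values rest on 1 number per condition with unknown depth, so differences between low values are the least certain. With a minimum of 5 FPKM, the genes called were 1 (Cxcl12) for higher at 96 h than at 24 h, 0 for higher in the re-seeded –dox cells at 24 h and at 96 h, 0 for higher and 0 for lower with dox at 24 h, 1 (Cxcl10) for lower with dox at 48 h and 2 (Cxcl10 and Cxcl12) at 96 h. With no minimum, 2 (Cxcl1 and Il6) were higher and 1 (Cxcl12) lower with dox at 0 h, and 3 were lower at 24 h. With a fold of at least 1.5, 2 were higher in the –dox cells than before re-seeding at 24 h (Cxcl10 and Cxcl12) and 2 higher with dox at 24 h (Ccl2 and Ccl7). With a fold of at least 3, and with 1 FPKM added to both values, 0 were higher and 0 lower with dox at 24 h and 1 (Cxcl10) was lower at 48 h. Fewer or more genes pass by the construction of these settings. Under median-ratio scaling, all 17 of the counts with alternatives kept within 1.5 times of their value, and 0 ratios reversed under any setting. With 1 FPKM added to both values, 44 of 81 single log2 ratios moved by more than 1.5-fold. So did 6 of 11 medians over the 8 genes, such as that of +dox to –dox at 96 h, which was -0.73. Ccl7 was no longer called lower with dox at 96 h under a minimum of 5 FPKM, a fold of at least 3 or 1 FPKM added. For each of the 7 genes with named likenesses, at least 1 of the 2 most like genes differed under Spearman's rho. Both differed under it for Cxcl5, Cxcl10, Ccl7 and Ptx3. Over the 8 re-seeded conditions, both of the 2 differed for each of the 7 genes.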
